A study of Mus musculus with 6 samples.

Results

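Chemokine ligands and their receptors were followed in 6 RNA-Seq libraries of mouse lung cells. The genes were chosen by name: numbered Ccl, Cxcl, Ccr and Cxcr symbols, the numbered Ackr symbols, and Cx3cl1, Cx3cr1, Xcl1, Xcr1 and Ccrl2. The rule matched 68 of the 49315 genes in the count table, which carry 63 symbols: 40 ligands and 23 receptors. Male C57BL/6J mice, whose age is not given in the sources used here, received bleomycin (BLM), a drug that scars the lung, or sterile saline (sham) through the oropharynx. Their lungs were taken 21 days later. The general method of the study pooled 2 to 3 lungs of a group per tube. The number of mice behind each library is not given in the sources used here. Live cells were sorted with an antibody to surface Lamp1, a lysosomal membrane protein, into Lamp1-enriched and Lamp1-depleted cells, and a part of each suspension was left unsorted. Each of the 6 conditions, unsorted, Lamp1-depleted and Lamp1-enriched cells of sham-treated and of BLM-treated mice, was 1 library. The labels name no other agent and no altered allele.

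Chemokines are small secreted proteins that guide moving cells along gradients. They signal through receptors with a 7-helix fold on the responding cell, named for the ligand class they read (CC, CXC, CX3C or XC). A separate set, the atypical receptors Ackr1 to Ackr4, binds chemokines without classical G protein signalling and removes, stores or transports them; Ccrl2, a related surface protein, holds the attractant chemerin for neighbouring cells. In the injured lung, ligands read by Cxcr2 are known for drawing in neutrophils, ligands read by Ccr2 for monocytes, and Ccl17 and Ccl22 for T cells that carry Ccr4. Cxcl12, read by Cxcr4, and Cxcl13, read by Cxcr5, act in the traffic of resting cells and in the layout of lymphoid tissue.

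Of the 63 symbols, 54 had at least 10 reads in some library, among them all 23 receptors and 31 of the 40 ligands, and 44 had at least 100 reads. Total counts per library ran from 30236120 to 52918696 reads. The BLM Lamp1-depleted library stood apart: the transcript Gm26917 took 38.4% of its reads, against at most 7.10% elsewhere, which left 18636423 reads for other genes. Levels are given as CPM, counts divided by library sizes that were scaled with the trimmed mean of M values (TMM). Lamp1 itself was higher in the Lamp1-enriched than in the Lamp1-depleted library by 1.75 on the log2 scale in sham and 1.77 in BLM. In sham it had 319 CPM in unsorted, 146 CPM in Lamp1-depleted and 491 CPM in Lamp1-enriched cells. In BLM it had 501, 111 and 378 CPM in the same order, so the unsorted library was the highest there.

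With 1 library per condition, a ratio of libraries has no replicate check. Each ratio is given on the log2 scale with a 95% interval that covers counting error only, and a member was counted as higher or lower when the log2 ratio reached 2 (4-fold) and the higher library held at least 10 reads. Where a library held 0 reads the fold is a lower bound, computed as if it had held 3. The sorting contrast was made in both treatments, that is, in separate pools of mice, and could be tested in a fit to the 4 sorted libraries that blocks on treatment. This fit had 1 residual degree of freedom, so its p-values lean on a spread shared across all genes. In bulk libraries, fewer cells of a type and less RNA per cell cannot be told apart.

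Conventional receptors lay mostly on the depleted side of the Lamp1 sort, atypical receptors on the enriched side, and ligands on both. In sham lung, 11 of 50 members tested were higher in Lamp1-enriched cells and 16 were lower, where 15.6% and 12.6% of all genes tested passed the same threshold. In BLM lung, 10 of 53 were higher and 13 lower, against a background of 19% and 12%; scaled by total counts alone the BLM counts were 12 and 10, and with Cxcl5, which had 0 reads in the depleted cells, set at its bound, 9 were higher. The median log2 ratio of the members was -0.61 in sham and -0.02 in BLM, beside -0.01 and 0.29 for all genes. Of 27 ligands tested in sham, 6 were higher and 4 lower, and of the 23 receptors 5 were higher and 12 lower. In BLM, 6 of 30 ligands were higher and 5 lower, and 4 of the 23 receptors were higher and 8 lower. Over both treatments, the edgeR quasi-likelihood test gave 12 of 52 members higher and 21 lower at an adjusted p under 0.05, where 21.5% and 19.2% of all genes passed. The share of members on the enriched side (23.1%) was thus close to that of all genes, and the share on the depleted side (40.4%) was above it.

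**Figure D1:**
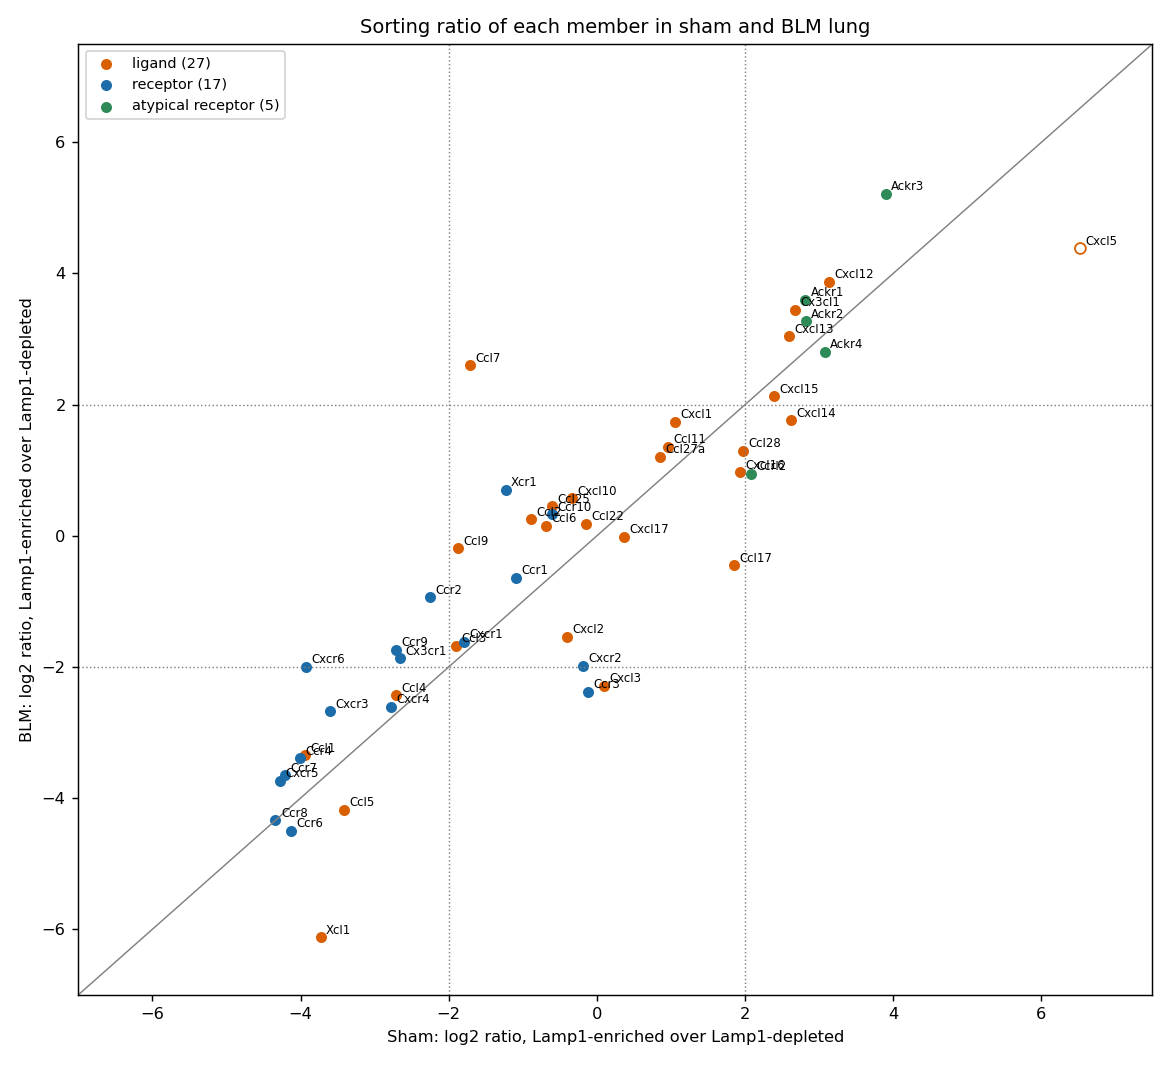
Sorting ratio of each member tested in both treatments. Each point is 1 gene, with the log2 ratio of Lamp1-enriched over Lamp1-depleted cells in sham (x axis) and in BLM (y axis); dotted lines mark 2 and -2, the grey line equal ratios, and the open point (Cxcl5) a gene with 0 reads in Lamp1-depleted cells. The 5 atypical receptors (green) lie above 0 on both axes, the 17 other receptors drawn (blue) lie below 0 in sham, and Ccl7 lies at -1.71 in sham and 2.60 in BLM.

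Cxcl12, the ligand of Cxcr4 and Ackr3, carried the most reads of any member. In the order unsorted, Lamp1-depleted and Lamp1-enriched, which is kept for all values that follow, it had 310, 59.6 and 524 CPM in sham and 661, 124 and 1816 CPM in BLM. The Lamp1-enriched library was the highest of its treatment and the depleted library the lowest. The log2 sorting ratio was 3.13 in sham (95% interval 3.08 to 3.19) and 3.88 in BLM (3.82 to 3.93), and the edgeR test gave an adjusted p of 1.04e-12.

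Other ligands that were higher in Lamp1-enriched cells were of several classes. Cx3cl1, a ligand that stays tethered to the membrane until it is shed, had 59.6, 14.1 and 89.6 CPM in sham and 20.5, 3.22 and 35.1 CPM in BLM. Cxcl13, the B cell attractant read by Cxcr5, had 1.71, 0.219 and 1.37 CPM in sham and 5.93, 0.189 and 1.69 CPM in BLM. Cxcl14, a ligand of skin and mucosa, had 21.7, 2.59 and 15.97 CPM in sham and 20.3, 4.21 and 14.3 CPM in BLM. All 3 were lowest in Lamp1-depleted cells in both treatments. Their log2 sorting ratios were 2.67, 2.59 and 2.62 in sham and 3.44, 3.04 and 1.76 in BLM, and all passed the edgeR test, with adjusted p of 7.49e-14, 0.00665 and 7.74e-06. Cxcl15, also known as lungkine, a ligand made by lung epithelium, had 205, 21.04 and 110.0 CPM in sham and 29.4, 5.73 and 25.1 CPM in BLM. Its log2 sorting ratio was 2.39 in sham and 2.13 in BLM, and the latter fell to 1.98 with DESeq2 size factors. Cxcl16, a membrane-bound ligand read by Cxcr6, had 24.3, 6.25 and 23.8 CPM in sham and 89.0, 14.0 and 27.4 CPM in BLM. It stayed under the threshold at 1.93 and 0.97 but passed the edgeR test (adjusted p of 0.00120), although not with total counts alone. Cxcl5, a ligand of Cxcr2, had 23, 0 and 44 reads in sham and 7, 0 and 19 reads in BLM. It was at least 14.5-fold higher in Lamp1-enriched than in Lamp1-depleted cells in sham and at least 2.45-fold higher in BLM.

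The ligands Ccl1, Ccl4, Ccl5 and Xcl1 were called lower in Lamp1-enriched cells in both treatments. With total counts alone Ccl4 was at -1.87 in BLM and was not called there. Ccl5, whose receptors include Ccr1 and Ccr3, had 2.47, 21.6 and 2.02 CPM in sham and 1.42, 8.52 and 0.459 CPM in BLM. Ccl4, which activated T cells and macrophages release, had 6.59, 21.2 and 3.22 CPM in sham and 6.18, 13.7 and 2.53 CPM in BLM. Xcl1, which attracts dendritic cells that carry Xcr1, had 21, 125 and 9 reads in sham and 5, 44 and 1 reads in BLM. For all 3, the depleted library was the highest of its treatment and the unsorted library lay between it and the enriched one. Their log2 sorting ratios were -3.41, -2.72 and -3.73 in sham and -4.18, -2.43 and -6.13 in BLM, where the interval for Xcl1 ran from -12.16 to -4.27. All 3 passed the edgeR test, with adjusted p of 1.38e-14, 3.46e-09 and 3.10e-07. Ccl1, a ligand of Ccr8, had 4, 23 and 1 reads in sham and 5, 14 and 3 reads in BLM. Its log2 sorting ratio was -3.94 (-9.90 to -1.91) in sham and -3.35 (-6.03 to -1.75) in BLM. It passed the edgeR test (adjusted p of 0.01335), but not with total counts alone or when every gene with at least 1 read was tested. Ccl3, a ligand of Ccr1, had 11.6, 19.9 and 5.28 CPM in sham and 30.6, 19.3 and 6.02 CPM in BLM; it stayed under the threshold, at -1.91 and -1.68, and passed the edgeR test (adjusted p of 9.97e-06). Ccl9 and Cxcl2 passed it as lower too, with adjusted p of 0.00700 and 0.00726. None of the 3 passed it when scaled by total counts alone, and Ccl9 did not with all 6 libraries in the fit. The log2 sorting ratios of Ccl9 and Cxcl2 were -1.88 and -0.41 in sham and -0.19 and -1.55 in BLM. Cxcl3 was called lower in BLM alone, at -2.29 from 35 and 18 reads, with 0.10 in sham; with total counts alone it was at -1.73 and was not called. Ccl7 was called higher in BLM alone, at 2.60.

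The conventional receptors stood on the depleted side. All 16 CC and CXC receptors had a log2 sorting ratio under 0 in sham, from -4.34 to -0.13, and 15 of 16 did in BLM, where Ccr10 was at 0.33 with 6 and 20 reads. Of the 10 CC receptors, 7 were called lower in sham and 5 in BLM; of the 6 CXC receptors, 4 and 3. Under every scaling, prior count and thinning tried, the sham ratios of these 16 stayed between -4.74 and -0.09.

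Cxcr4, Ccr7 and Cxcr5 led the depleted cells. Cxcr4, the Cxcl12 receptor of most leukocytes, had 98.7, 757 and 110 CPM in sham and 106, 280 and 45.9 CPM in BLM. Ccr7, which guides naive T cells and mature dendritic cells to lymph nodes, had 32.9, 510 and 27.6 CPM in sham and 41.2, 168 and 13.3 CPM in BLM. Cxcr5, the Cxcl13 receptor of B cells and follicular helper T cells, had 28.7, 450 and 23.1 CPM in sham and 17.2, 135 and 10.2 CPM in BLM. In each treatment the depleted library stood above the other 2 libraries for these receptors. Their log2 sorting ratios were -2.79, -4.21 and -4.28 in sham and -2.61, -3.65 and -3.74 in BLM, with adjusted p of 8.10e-11, 6.92e-21 and 5.46e-22 in the edgeR test.

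Receptors that T cell subsets are known for had the same order. Ccr6, also a B cell receptor, had 6.43, 61.6 and 3.50 CPM in sham and 8.80, 49.8 and 2.18 CPM in BLM. Cxcr3, carried by type 1 T cells, had 0.968, 12.5 and 1.02 CPM in sham and 1.52, 5.44 and 0.844 CPM in BLM. Cxcr6, a receptor of tissue-resident T cells, had 6.28, 41.9 and 2.74 CPM in sham and 3.57, 11.7 and 2.92 CPM in BLM. The depleted library was again the highest, and the log2 sorting ratios were -4.13, -3.60 and -3.93 in sham and -4.50, -2.67 and -1.999 in BLM. Cxcr6 in BLM was just short of the threshold and lay past it at -2.15 with DESeq2 size factors. Ccr4, the receptor of Ccl17 and Ccl22, had 0.639, 4.72 and 0.282 CPM in sham and 0.786, 4.36 and 0.404 CPM in BLM. Ccr8, carried by regulatory T cells, had 0.453, 5.07 and 0.239 CPM in sham and 0.735, 6.53 and 0.312 CPM in BLM. Both were called lower in Lamp1-enriched cells in both treatments, Ccr4 at -4.01 and -3.40 and Ccr8 at -4.34 in each. Ccr9, the gut-homing receptor that reads Ccl25, had 3.91, 13.3 and 2.02 CPM in sham and 2.76, 5.96 and 1.78 CPM in BLM, with log2 sorting ratios of -2.71 and -1.74.

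Receptors of the monocyte and macrophage lineage were depleted-sided in sham and less so in BLM. Ccr2, which brings monocytes out of the marrow, had 44.0, 115 and 24.2 CPM in sham and 107, 64.8 and 33.9 CPM in BLM. Cx3cr1, the fractalkine receptor of patrolling monocytes and resident macrophages, had 12.9, 60.8 and 9.58 CPM in sham and 31.3, 33.2 and 9.10 CPM in BLM. In sham the depleted library held the highest value for both; in BLM the unsorted library did for Ccr2. The log2 sorting ratio went from -2.25 to -0.94 for Ccr2 and from -2.66 to -1.87 for Cx3cr1; the differences between treatments were not tested. Ccr1, a receptor of monocytes and neutrophils, had 23.4, 11.8 and 5.52 CPM in sham and 108, 33.0 and 21.2 CPM in BLM, with log2 sorting ratios of -1.09 and -0.64. All 3 passed the edgeR test over both treatments, with adjusted p from 1.09e-09 for Cx3cr1 to 0.0223 for Ccr1. With total counts alone Ccr2 and Ccr1 did not pass it, and Ccr1 did not when every gene with at least 1 read was tested. The 8 monocyte and interstitial macrophage markers summed to 257 CPM in depleted and 56.9 CPM in enriched cells of sham lung, with 2 lower in enriched cells, and to 237 and 160 CPM in BLM, with 1 lower; their part in these ratios was not tested. Cx3cr1 and Ccr9 overlap genes on both strands, and Cxcr5 and Cxcr6 each overlap 1 named gene on the opposite strand; whether the counting used strand is not given in the sources used here, so reads of overlapping genes may be shared.

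The neutrophil receptors stayed under the fold threshold by sorting. Cxcr2, the main neutrophil receptor for Cxcl1, Cxcl2 and Cxcl5, had 7.42, 3.90 and 3.43 CPM in sham and 12.7, 28.3 and 7.16 CPM in BLM. Cxcr1 had 0.927, 0.483 and 0.130 CPM in sham and 4.77, 1.09 and 0.349 CPM in BLM. The highest library for Cxcr2 was the unsorted one in sham and the depleted one in BLM. Its log2 sorting ratio was -0.18 in sham and -1.98 in BLM, close to the threshold in the latter, and passed it at -2.13 with DESeq2 size factors. Cxcr2 passed the edgeR test as lower (adjusted p of 0.0128), but not with total counts alone or with all 6 libraries in the fit. Xcr1, the receptor of cross-presenting dendritic cells, had 1.73, 1.75 and 0.739 CPM in sham and 4.77, 1.04 and 1.71 CPM in BLM, and its log2 sorting ratio was -1.23 and 0.70.

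The atypical receptors went the other way. All 5 were higher in Lamp1-enriched cells in sham and 4 of 5 in BLM, all 5 passed the edgeR test, although Ccrl2 did not with total counts alone, and none of their sorting ratios was under 0 in any alternative. Ackr3, which takes up Cxcl12, had 68.4, 12.0 and 179 CPM in sham and 95.4, 10.2 and 380 CPM in BLM. Its log2 sorting ratio of 3.90 in sham and 5.21 in BLM was the highest among the receptors (adjusted p of 1.04e-24). Ackr2, which degrades inflammatory CC ligands and is known from lymphatic vessels, had 76.8, 17.1 and 121 CPM in sham and 60.1, 16.6 and 161 CPM in BLM, with log2 ratios of 2.82 and 3.27. Ackr4, which takes up Ccl19, Ccl21 and Ccl25, had 18.1, 4.15 and 35.1 CPM in sham and 2.94, 0.994 and 7.04 CPM in BLM, with log2 ratios of 3.08 and 2.80. In these 3 genes the enriched library was the highest of its treatment and the depleted library the lowest. Ackr1, the Duffy antigen of red cells and of venular endothelium, had 23, 2 and 17 reads in sham and 168, 17 and 541 reads in BLM. Its log2 sorting ratio was 2.81 in sham (0.999 to 6.23) and 3.60 in BLM (2.93 to 4.41). Ccrl2 had 59.6, 23.1 and 98.1 CPM in sham and 172, 37.7 and 72.8 CPM in BLM; it was called in sham at 2.09, was at 1.91 there with total counts alone, and was at 0.95 in BLM. Ackr1 shares a strand with the overlapping gene Cadm3 and Ackr4 overlaps Acad11 on the opposite strand, so their reads may be shared. The same holds for the ligands Ccl2, Ccl6, Cxcl10, Cxcl15, Cxcl16, Cxcl17 and Xcl1 and the receptor Ccr10, which each overlap a gene on the opposite strand.

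Lists of cell type markers were set beside these groups, and some lay mostly on a single side of the sort. The summed level of 8 endothelial markers was 1244 CPM in depleted and 8520 CPM in enriched cells of sham lung and 842 and 8049 CPM in BLM, and all 8 were higher in enriched cells in both treatments. In contrast, all 6 B cell markers summed to 3137 and 169 CPM in sham and 1619 and 75.9 CPM in BLM, and all 8 T cell markers to 529 and 25.6 CPM and to 397 and 15.4 CPM; every marker of both lists was lower in enriched cells in both treatments. All 5 natural killer cell markers were lower as well, at 123 and 10.5 CPM in sham and 43.3 and 3.05 CPM in BLM. Fibroblast markers summed to 79.4 and 215 CPM in sham, where 0 of the 6 were called. In BLM they summed to 183 and 934 CPM, and all 6 were higher in enriched cells. Alveolar epithelial markers, beside Cxcl15, summed to 158 and 1013 CPM in sham, with 5 of 6 higher in enriched cells. In BLM they summed to 77.5 and 280 CPM, with 2 of 6 higher. The 6 pericyte and smooth muscle markers summed to 35.1 CPM in depleted and 258 CPM in enriched cells of sham lung, all 6 higher. In BLM they summed to 32.5 and 144 CPM, with 5 higher. The 6 lymphatic endothelial markers summed to 82.85 and 787 CPM in sham, with 4 higher in enriched cells. In BLM they summed to 41.4 and 423 CPM, with 2 higher. No marker of these lists was at 0 reads in any library. Some other lists were mixed or mostly not called. Of 5 dendritic cell markers, with Xcr1 left out, 2 were higher and 2 lower in sham, and 2 and 3 in BLM. Of 5 airway epithelial markers, 1 was higher in sham and 0 were called in BLM. Of 7 alveolar macrophage markers, 1 was higher in each treatment. Of 5 neutrophil markers, with Cxcr2 left out, 1 was lower in sham and 3 in BLM. The part of any of these markers in the sorting ratios of ligands and receptors was not tested.

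Ligands and receptors were then paired across the sorted fractions, with 44 known pairs. Of the 34 pairs tested in sham, 4 were split, with the ligand called in 1 fraction and the receptor in the other. In 3 of them the ligand was in Lamp1-enriched cells: Cxcl12 with Cxcr4, Cxcl13 with Cxcr5, and Cx3cl1 with Cx3cr1. In the remaining pair, Ccl5 with its scavenger Ackr2, the ligand was in depleted cells. In BLM, 3 of 37 pairs tested were split: Cxcl12 with Cxcr4 and Cxcl13 with Cxcr5, which carried the ligand in enriched cells, and Ccl5 with Ackr2. Cx3cl1 with Cx3cr1 was not split there because Cx3cr1, at -1.87, did not reach the threshold; with DESeq2 size factors it did, at -2.02, and 5 pairs were split. Pairs share genes and are not independent of each other. These counts stand beside the calls of single genes. In sham, 6 of 27 ligands tested were higher in enriched cells and 4 lower, and 5 of 23 receptors were higher and 12 lower. In BLM, 6 of 30 ligands were higher and 5 lower, and 4 of 23 receptors were higher and 8 lower. Whether known pairs fell on opposite sides or on the same side more often than unrelated ligands and receptors was not tested.

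Other pairs had both partners called on the same side. Cxcl12 with Ackr3 and Cxcl5 with Ackr1 were both called in enriched cells in sham and in BLM, where Cxcl5 had 0 reads in depleted cells and falls under the threshold at its bound of 2.45-fold. In sham, 3 pairs were both called in depleted cells, among them Ccl1 with Ccr8. In BLM this held for Ccl1 with Ccr8 and for Ccl5 with Ccr3, where Ccr3 had 13 and 6 reads. Cxcl12 was thus paired with a receptor in each fraction: in BLM the log2 sorting ratio was 3.88 for the ligand, 5.21 for Ackr3 and -2.61 for Cxcr4. The remaining 25 pairs tested in sham and 30 in BLM had at least 1 partner under the threshold, among them Cxcl16 with Cxcr6 (1.93 and -3.93 in sham) and Ccl17 with Ccr4 (1.85 and -4.01 in sham).

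**Figure D2:**
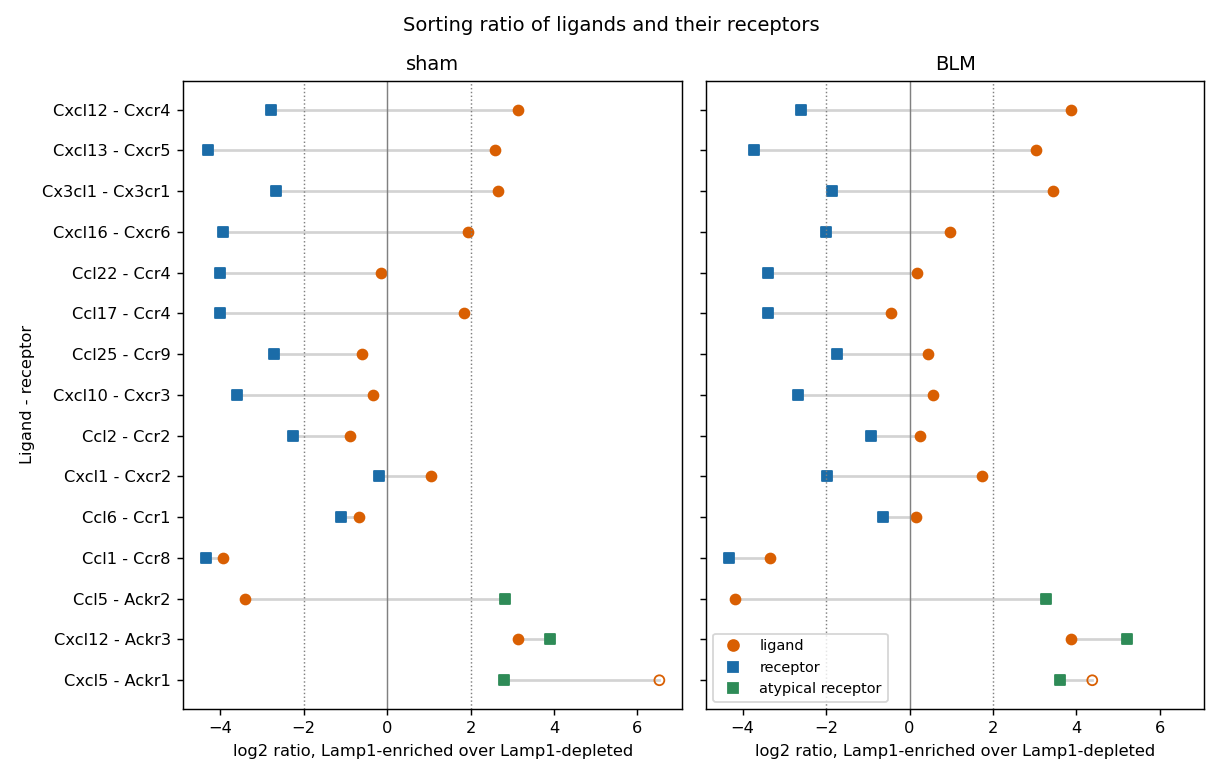
Sorting ratio of the ligand and of the receptor for 15 of the pairs, in sham (left) and BLM (right). The x axis is the log2 ratio of Lamp1-enriched over Lamp1-depleted cells, dotted lines mark 2 and -2, circles are ligands (open where depleted cells had 0 reads), and squares are receptors (green for atypical ones). Cxcl12 lies at 3.13 in sham with Cxcr4 at -2.79 on the other side of 0 and Ackr3 at 3.90 on its own side.

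BLM treatment was compared with sham in unsorted cells first. Of 53 members tested, 14 were higher in BLM and 2 lower, where 5.05% and 4.98% of all genes passed the threshold; the members' shares were 26.4% and 3.77%. The median log2 ratio of the members was 1.09, beside -0.07 for all genes. Among the 14 were the ligands Ccl2, Ccl6, Ccl7, Ccl8, Ccl9, Ccl17, Ccl22, Ccl24, Cxcl1 and Cxcl2 and the receptors Ccr1, Cxcr1 and Ackr1; the 2 lower were Cxcl15 and Ackr4. No second pool of mice was sequenced per treatment, so no test could be made, and differences between mice, pools and libraries cannot be told apart from the treatment.

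Cxcl1 and Cxcl2, the neutrophil ligands read by Cxcr2, lie near Cxcl3 on chromosome 5, with Cxcl15 between Cxcl3 and Cxcl1. The 250 bases before the start of each gene are shown because all 3 hold, in capitals, the letters GGAATTTCC, a form of the site bound by NF-kappaB factors. The sequences are from RefSeq (GRCm38.p6, plus strand): chr5:90890995-90891244 for Cxcl1, chr5:90903649-90903898 for Cxcl2 and chr5:90785851-90786100 for Cxcl3.
Cxcl1: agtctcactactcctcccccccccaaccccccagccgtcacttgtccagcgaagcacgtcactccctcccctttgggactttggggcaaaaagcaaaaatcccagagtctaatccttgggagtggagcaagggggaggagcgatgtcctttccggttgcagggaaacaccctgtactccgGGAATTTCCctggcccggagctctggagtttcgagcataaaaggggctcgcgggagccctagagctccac
Cxcl2: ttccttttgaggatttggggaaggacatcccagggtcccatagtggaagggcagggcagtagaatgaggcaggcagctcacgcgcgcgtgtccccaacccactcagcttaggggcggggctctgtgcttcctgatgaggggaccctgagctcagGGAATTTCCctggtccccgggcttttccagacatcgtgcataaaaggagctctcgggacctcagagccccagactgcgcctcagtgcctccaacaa
Cxcl3: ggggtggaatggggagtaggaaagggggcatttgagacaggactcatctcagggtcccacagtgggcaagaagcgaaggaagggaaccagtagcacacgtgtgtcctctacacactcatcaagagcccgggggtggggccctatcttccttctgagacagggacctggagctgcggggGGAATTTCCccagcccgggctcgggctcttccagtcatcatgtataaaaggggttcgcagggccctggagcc
The capitals begin 70 bases before the start in Cxcl1, 96 in Cxcl2 and 72 in Cxcl3. These letters, or GGAAATTCC on the other strand, stand in 104 of 32851 RefSeq windows of 300 bases around gene starts (0.317%), and in 5 of the 56 windows found for 47 of the 63 member symbols. The other windows were those of Cxcl10 and Ccr3. A match describes the letters only.

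Cxcl1 had 4.22, 0.592 and 1.24 CPM in sham and 37.7, 1.33 and 4.48 CPM in BLM. Cxcl2 had 51.6, 11.1 and 8.37 CPM in sham and 241, 104 and 35.7 CPM in BLM. Cxcl3 had 1.13, 0.285 and 0.304 CPM in sham and 3.70, 1.66 and 0.330 CPM in BLM. In each treatment all 3 were highest in unsorted cells, and each BLM value was above its sham counterpart, although for Cxcl3 in enriched cells (14 and 18 reads) by less than counting error. The log2 ratio of BLM over sham in unsorted cells was 3.15 for Cxcl1 (2.95 to 3.38), 2.22 for Cxcl2 (2.16 to 2.29) and 1.70 for Cxcl3 (1.25 to 2.18). With total counts alone the ratio of Cxcl2 was 1.96. Cxcl10, a ligand induced by interferon and read by Cxcr3, also holds the letters; it had 2.25, 2.501 and 1.98 CPM in sham and 6.52, 2.23 and 3.32 CPM in BLM, a log2 ratio of 1.53 in unsorted cells. Ccr3, the eosinophil receptor, had 6 to 13 reads in each library and a log2 ratio of -0.32. Cxcl15, their neighbour, was lower in BLM by 2.80 on the log2 scale in unsorted and 2.13 in enriched cells.

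Ccl6 and Ccl9, rodent ligands of Ccr1 made mainly by myeloid cells, were the most abundant CC ligands of unsorted BLM lung. Ccl6 had 160, 70.9 and 44.2 CPM in sham and 1286, 153 and 171 CPM in BLM. Ccl9 had 18.5, 28.5 and 7.74 CPM in sham and 171, 26.6 and 23.3 CPM in BLM. The unsorted BLM library stood above the other 5 libraries for both. Their log2 ratio of BLM over sham in unsorted cells was 3.01 and 3.21, and Ccr1, their receptor, was at 2.21 (1.94 with total counts alone). Ccl6, with a log2 ratio of 1.95 in enriched cells and 1.11 in depleted cells, was called in neither sorted fraction.

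The monocyte ligands were low in sham. Ccl2, the main ligand of Ccr2, had 35, 17 and 9 reads in sham and 228, 23 and 71 reads in BLM. Ccl7, read by Ccr2 and Ccr1, had 56, 11 and 3 reads in sham and 311, 6 and 99 reads in BLM. Ccl8, grouped with them but paired here with Ccr8, had 0 reads in the 3 sham libraries and 17, 0 and 8 reads in BLM. The BLM unsorted library held the most reads of each. The log2 ratio in unsorted cells was 2.99 for Ccl2 (2.49 to 3.56) and 2.76 for Ccl7 (2.36 to 3.21), and Ccl8 was at least 6.97-fold higher. Ccl12, a further Ccr2 ligand, had 14, 0 and 0 reads in sham and 28, 3 and 16 reads in BLM; its log2 ratio in unsorted cells was 1.27.

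Ccl17 and Ccl22, the pair read by Ccr4, were higher in BLM unsorted cells while their receptor was not. Ccl17 had 2.31, 0.263 and 0.978 CPM in sham and 12.4, 3.41 and 2.49 CPM in BLM. Ccl22 had 8.47, 3.12 and 2.80 CPM in sham and 39.7, 8.33 and 9.48 CPM in BLM. Their log2 ratios in unsorted cells were 2.42 and 2.23, the latter 1.96 with total counts alone, and that of Ccr4 was 0.30 (-0.47 to 1.07). Ccl24, an eosinophil ligand known from macrophages, had 8, 0 and 1 reads in sham and 37, 10 and 15 reads in BLM. Its log2 ratio in unsorted cells was 2.44 (1.38 to 3.82), and was 1.51 in counts thinned without Gm26917.

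Among the receptors, Ackr1 was at a log2 ratio of 3.14 in unsorted cells and Cxcr1 at 2.35, from 45 to 188 reads. The CC and CXC receptors that were not called ranged from -0.81 for Cxcr6 to 1.28 for Ccr2. Of the ligands, Ccl3, Ccl4 and Ccl5 were not called there, at log2 ratios of 1.40, -0.09 and -0.79.

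**Figure D3:**
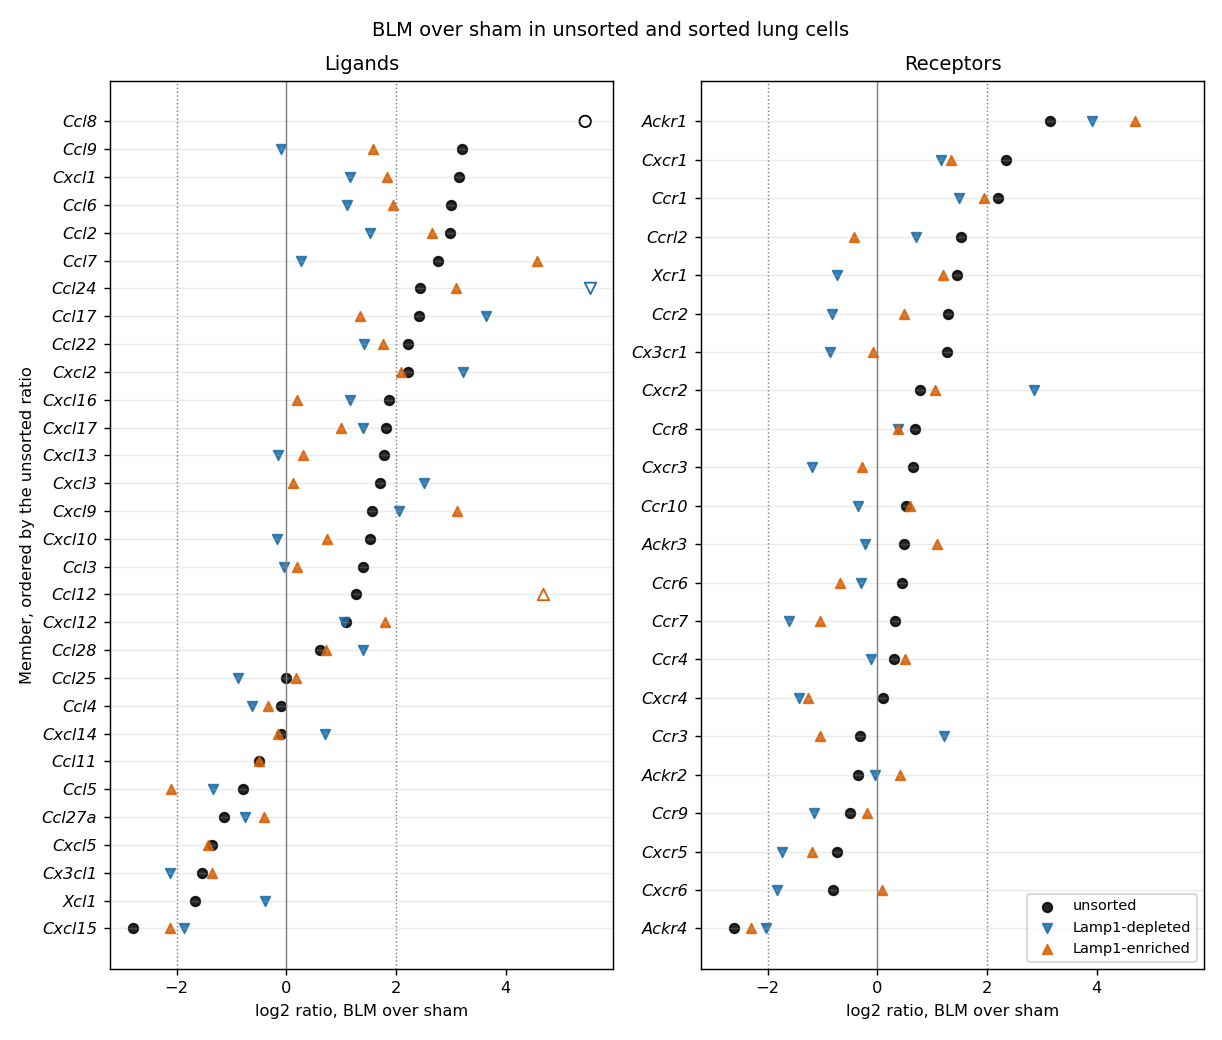
BLM over sham for ligands (left) and receptors (right). The x axis is the log2 ratio, rows are ordered by the ratio in unsorted cells (circles), and triangles give the Lamp1-depleted (down, blue) and Lamp1-enriched (up, orange) ratios; dotted lines mark 2 and -2, and open symbols a sham library with 0 reads, plotted with the prior count. Ackr1 lies above 3 in unsorted, depleted and enriched cells, while Ackr4 lies at -2.04 or lower.

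Within the sorted fractions fewer members were called. In Lamp1-enriched cells, 8 of 51 were higher in BLM and 3 lower, shares of 15.7% and 5.88% against 3.57% and 2.05% of all genes. Of the monocyte ligands, Ccl7 was at 4.57 on the log2 scale (3.21 to 7.10), from 3 to 99 reads, Ccl2 at 2.66, and Ccl12 was at least 4.50-fold higher. Ackr1 was at 4.70 (4.05 to 5.54) and Cxcl2 at 2.09. Ccl24, with 1 and 15 reads, was at 3.10 (0.96 to 9.06). Cxcl9, an interferon-induced ligand of Cxcr3, had 0.927, 0.153 and 0.174 CPM in sham and 2.76, 0.663 and 1.60 CPM in BLM, and was at 3.11 in enriched cells. The lower members were Ackr4 at -2.31, Cxcl15 at -2.13 and Ccl5 at -2.11. Cxcl12 was at 1.79 in enriched and 1.05 in depleted cells, under the threshold in both.

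In Lamp1-depleted cells, 7 of 50 members were higher in BLM and 2 lower, shares of 14% and 4% against 5.5% and 7.45% of all genes. The higher members were Ackr1 at 3.92 (17 against 2 reads), Ccl17 at 3.65, Cxcl2 at 3.23, Cxcr2 at 2.85, Cxcl3 at 2.501 and Cxcl9 at 2.05; Ccl24 was at least 7.19-fold higher. Cxcl3 and Cxcl9 were at 1.78 and 1.33 with total counts alone. The lower members were Cx3cl1 at -2.12 and Ackr4 at -2.04, and neither was called with DESeq2 size factors. Scaled by total counts alone 5 were higher and 8 lower, in a library where Gm26917 took 38.4% of reads. Summed neutrophil markers, with Cxcr2 left out, were 16.8 CPM in sham and 126 CPM in BLM depleted cells; 3 of the 5 were higher, and Ly6g was at 0 reads in at least 1 library. Their part in the ratios of Cxcr2 and Cxcl2 was not tested.

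Some marker sums also differed between sham and BLM in unsorted cells. The 8 monocyte and interstitial macrophage markers summed to 106 CPM in sham and 977 CPM in BLM, and 7 of them were higher. The 7 alveolar macrophage markers summed to 617 and 2563 CPM, with 3 higher and Fabp1 at 0 reads in at least 1 library. The 6 alveolar epithelial markers summed to 1310 and 267 CPM, with 4 lower, beside Cxcl15. In contrast, the 5 neutrophil markers, with Cxcr2 left out, summed to 30.05 and 40.74 CPM, with 1 higher. The T cell markers summed to 35.94 and 43.65 CPM and the endothelial markers to 5316 and 3032 CPM, with 0 called in either list. The part of any of these markers in the ratios of Ccl6, Ccl9 and the other members was not tested.

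Several members were higher in unsorted cells than in either sorted fraction. In BLM, 8 of 54 members were at least 4-fold above both fractions, a share of 14.8% where 3.27% of all genes were; among them were Ccl2, Ccl6, Ccl7, Ccl9, Ccl22, Cxcl1 and Cxcr1. In sham, 4 of 52 were, against 2.29%: Ccl7, Ccl12, Cxcl2 and Cxcl9, of which Ccl12 and Cxcl9 had 14 and 45 reads in unsorted cells. In BLM, Cxcl1 was 8.40-fold, Ccl6 7.54-fold and Ccl9 6.44-fold above the higher of the 2 fractions. Conversely, unsorted cells held less Cxcr4, Ccr7 and Cxcr5 than depleted cells in both treatments. In the same libraries the summed monocyte and interstitial macrophage markers were 977 CPM in unsorted BLM cells against 237 and 160 CPM in the fractions, and the alveolar macrophage sum was 2563 CPM against 210 and 373 CPM; their part was not tested.

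To compare genes with each other, levels were divided by exon length (RPKM, the CPM per kilobase). Among the ligands, Cxcl15 led sham unsorted cells with 96.5 RPKM, followed by Ccl6 with 89.1 RPKM and Cxcl12 with 37.9 RPKM. In BLM unsorted cells, Ccl6 had 716 RPKM, 60.9% of the sum over all ligands, followed by Cxcl2 with 116 RPKM (9.90%). In Lamp1-enriched cells Cxcl12 came to the front, with 64.1 RPKM in sham (30.4% of the ligand sum) and 222 RPKM in BLM (53.5%). In Lamp1-depleted cells Ccl6 led in both treatments, with 39.5 RPKM in sham, ahead of Ccl4 with 32.1, Ccl3 with 25.9 and Ccl5 with 22.5 RPKM, and with 85.3 RPKM in BLM, ahead of Cxcl2 with 50.3 RPKM.

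Among the receptors, Cxcr4 had the highest RPKM in sham unsorted cells and in both depleted libraries, at 54.6, 419 and 155 RPKM. It was followed in depleted cells by Ccr7, at 258 RPKM in sham and 84.7 RPKM in BLM. Lamp1-enriched cells of sham lung held Cxcr4 (60.7 RPKM), Ackr3 (53.5 RPKM), Ackr2 (38.6 RPKM) and Ccrl2 (37.8 RPKM) at like levels. In BLM enriched cells Ackr3 stood first with 113 RPKM, 43.4% of the receptor sum, ahead of Ackr2 with 51.4 RPKM, and Cxcr4 was at 25.4 RPKM. BLM unsorted cells were led by Ccrl2 (66.3 RPKM), Cxcr4 (58.5 RPKM) and Ccr1 (38.1 RPKM).

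**Figure D4:**
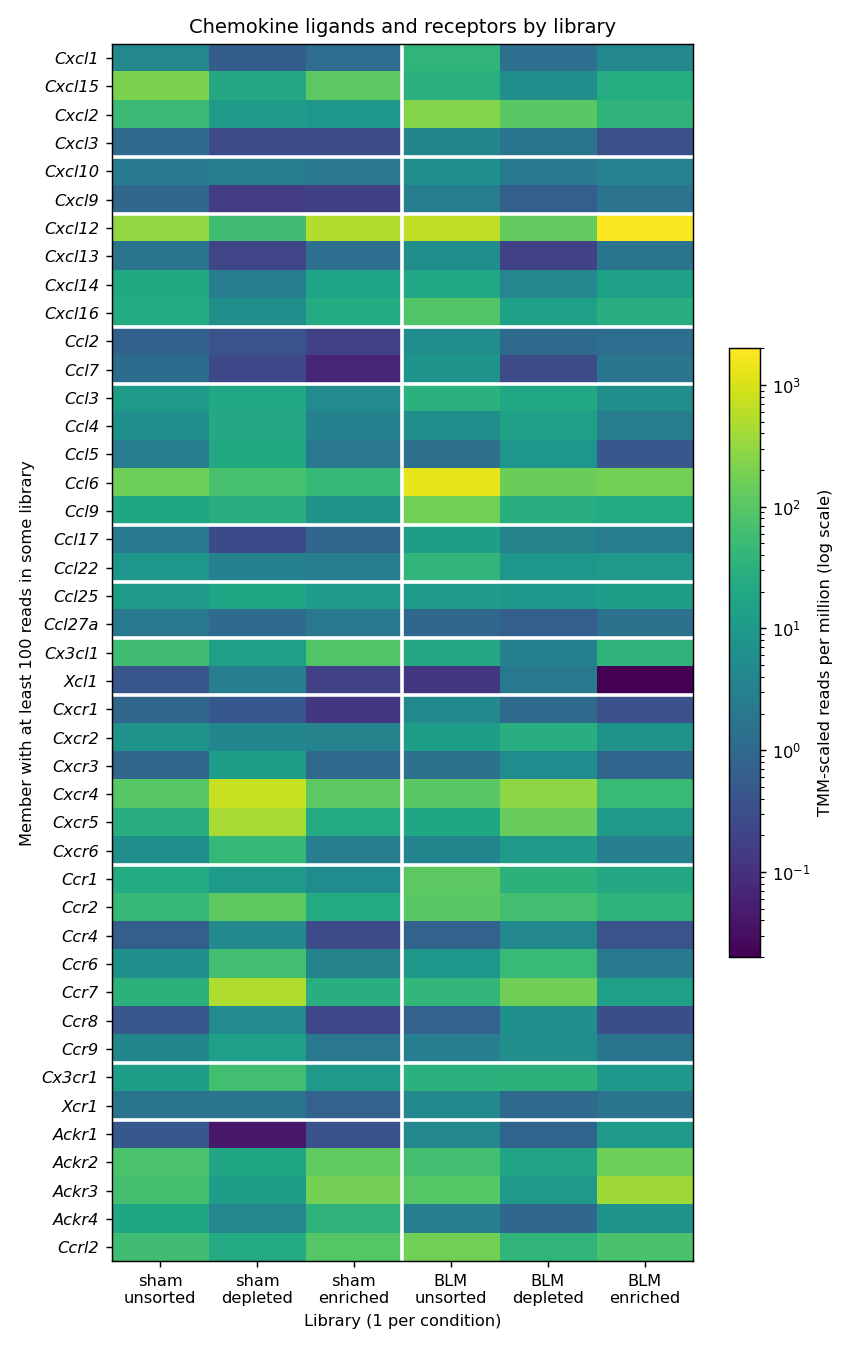
Level of 43 of the 44 member symbols with at least 100 reads in some library. Columns are the 6 libraries, rows are genes grouped by role (white lines), and colour is TMM-scaled CPM on a log scale, with values under 0.02 drawn at 0.02. Within each treatment, Cxcr4, Ccr7 and Cxcr5 are brightest in the depleted column, and Cxcl12 and Ackr3 in the enriched column. Ccl6 is brightest in the BLM unsorted column, at 1286 CPM.

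The remaining members were called in no comparison or were scarcely read. Ccl25, the ligand of Ccr9 and Ackr4, had 11.6, 17.5 and 11.4 CPM in sham and 11.5, 9.42 and 12.9 CPM in BLM, and none of its ratios exceeded 0.89 in size on the log2 scale. It overlaps Elavl1 on the opposite strand. Ccl27a, a skin ligand that overlaps Il11ra1, had 14 to 104 reads, and its log2 ratios ran from -1.14 to 1.21. Ccl11, Ccl28, Ccr10 and Cxcl17 had at most 98 reads in any library and were called in no comparison. Ccl19, Ccl20, Ccl26 and Cxcl11 had 1 to 9 reads in their highest library and were not tested. Ccl21a, Ccl21b, Ccl21c, Ccl27 and Ccl27b, 10 rows in all, had 0 reads in all 6 libraries, which allows up to 3 reads in each. These genes have near-identical copies, and how reads that map to several copies were counted is not given in the sources used here, so no level can be read from these zeros.

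Genes of the same pathway outside the name rule were taken from lists of related genes. Pf4 and Ppbp, the CXC ligands stored in platelets, had 14.1, 1.07 and 37.2 CPM and 206, 27.1 and 694 CPM in sham, and 3.17, 1.09 and 5.48 CPM and 29.1, 3.74 and 88.7 CPM in BLM. Both were called higher in enriched cells in both treatments and lower in BLM in unsorted and enriched cells, as were 6 of 6 platelet markers by sorting, a list that includes these genes. Of 37 genes of chemokine receptor signalling, 2 were higher and 13 lower in enriched cells of sham lung and 4 and 16 in BLM, where 15.6% and 12.6% of all genes passed in sham and 19% and 12% in BLM, with a median log2 ratio of -0.95 and -1.45 beside -0.01 and 0.29 for all genes. Of 17 genes for chemokine cleavage and matrix binding, 1 was higher and 1 lower in sham sorting, against the same background, and 3 were higher in BLM unsorted cells, where 5.05% of all genes were. Sulf1, which trims the heparan sulphate that holds chemokines, was at 3.23 and 4.01 by sorting, and Mmp12, a macrophage elastase that cleaves chemokines, was at 6.00 in BLM unsorted cells. Of 16 other chemoattractant and receptor genes tested, 2 were higher and 4 lower in sham sorting and 5 were higher in BLM unsorted cells, beside these same shares of all genes. Among the lower ones was Gpr183, an oxysterol receptor that guides B cells, at -4.22 by sorting in sham.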

How the data were processed

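Cells were taken from pooled lungs of sham-treated and BLM-treated mice, and polyA RNA was sequenced on an Illumina instrument. The authors deposited raw counts of reads for each gene and did not normalize them. The submitters' processing notes name Trimmomatic 0.36, STAR 2.5.2b, featureCounts, Subread 1.5.2, DESeq2 and the genome build GRCm38, with no settings; strand and multi-mapped reads are not given in the sources used here. Positions and exon lengths were taken from GENCODE M21, in which 61 of the 68 member identifiers were found.

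Samples were grouped by their labels, and only 1 library stood for each condition. TMM factors (0.699 for BLM Lamp1-depleted cells) were computed with edgeR 4.0.16 under R 4.3.3. Log2 ratios added 0.5 reads, in proportion to the size of the library, at least 10 reads in the higher library and a threshold of 2, with Clopper-Pearson intervals at 95% (Python 3.11.15, scipy 1.17.1). Reads carried no molecular identifiers, so intervals and floors of 3 reads cover counting error only. A share of all genes that passed the same rule is given beside the first count of members in each comparison. The sorting effect was tested with the edgeR quasi-likelihood test on the 4 sorted libraries, blocking on treatment, with filterByExpr and Benjamini-Hochberg adjustment over all 20593 genes kept; the prior degrees of freedom were infinite and the biological coefficient of variation was 0.316. The sham and BLM pools came from different mice, and nothing in the labels says that the fractions of a treatment came from separate animals, so p-values measure the spread between these libraries only. The programs were tested on simulated data.

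Alternatives were DESeq2 1.42.0 size factors, total counts alone, thresholds of 1 and 3 on the log2 scale, minima of 1 and 50 reads, 2 reads added in place of 0.5, and counts thinned to the smallest total; for the test, all 6 libraries, every gene that had 1 read or more, and the Wald test of DESeq2. Thinning without Gm26917 was chosen after seeing the data. The members, pairs and gene lists were chosen with earlier results of these data known. Values in every library are given for members with at least 100 reads that were called in some comparison, for members of the main pairs and for atypical receptors; of related genes, for Pf4, Ppbp and the largest ratios. Values of some genes are not reported here and are left out of the plots, although counts and medians over the members include them. Of the 15 pairs drawn, the choice was made after their values were seen.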

Additional observations from a re-analysis of the deposited data

Results flagged for a closer look

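Ccl7 moved in opposite directions between the sorted fractions in the treatments: the log2 ratio of Lamp1-enriched over Lamp1-depleted cells was -1.71 in sham and 2.60 in BLM. The difference was not tested. The sham ratio rests on 11 reads in depleted and 3 in enriched cells, with an interval from -4.37 to 0.03, and the BLM ratio on 6 and 99 reads, with an interval from 1.504 to 4.16.

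Ccr3 had a log2 ratio of BLM over sham of -1.04 in Lamp1-enriched cells and 1.21 in Lamp1-depleted cells, from 11 to 6 and from 12 to 13 reads. The difference was not tested, and both intervals (-2.84 to 0.44 and -0.02 to 2.49) include 0. Ccr3 had at most 13 reads in any library.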

How the results depend on the processing

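Of 183 recomputed counts and medians, 143 kept their direction and stayed close to the reported value. Another 34 moved further from it, and 6 changed sign. Those 6 were medians of sorting in BLM (reported as -0.02) and of BLM over sham in depleted cells (reported as -0.07). Of 2001 recomputed ratios of single members, 1938 stayed on the same side of the threshold, 35 dropped under it and 28 passed it. None of the 776 recomputed values of ratios that had been called turned direction, and 40 of the 1225 values of ratios that had not been called did, all for ratios of at most 0.71 in size. Against the reported scaling, total counts alone shifted the median log2 ratio of all genes by -0.17 for sorting in sham, 0.56 for sorting in BLM, -0.26 for BLM over sham in unsorted cells and -0.72 in depleted cells, and DESeq2 size factors by -0.15 for sorting in BLM and 0.15 in depleted cells. With total counts alone the quasi-likelihood test called 13 members lower in place of 21 (2872 genes higher and 1564 lower in place of 4422 and 3964), and the median of sorting in BLM was 0.54. That median was 0.17 with at least 50 reads and 0.17 with at least 1 read.

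For BLM over sham in depleted cells, the members lower were 0 with DESeq2 size factors, 8 with total counts alone, 1 with a prior count of 2, 1 in thinned counts and 1 in counts thinned without Gm26917; the median was 0.081, -0.79, 0.0039 and 0.12 under DESeq2 size factors, total counts, thinning and thinning without Gm26917. With at least 50 reads, 3 members were higher there and 2 stood above both fractions in sham; with at least 1 read, 4 were lower in unsorted cells. Split pairs in BLM were 5 with DESeq2 size factors and 5 with at least 1 read.

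At a log2 ratio of at least 1, sorting in BLM gave 16 higher and 20 lower, BLM over sham gave 27 and 6 in unsorted, 20 and 9 in enriched and 18 and 10 in depleted cells, 10 members in sham and 20 in BLM stood above both fractions, and 9 pairs were split in BLM. At a log2 ratio of at least 3, sorting gave 4 higher in sham and 8 lower in BLM, BLM over sham gave 6 and 0 in unsorted, 5 and 0 in enriched and 4 higher and 0 lower in depleted cells, 1 member in sham and 1 in BLM stood above both fractions, and 0 pairs were split in sham. Fewer or more members pass by construction there. The share of all genes that passed at thresholds of 1 and 3 was not computed, so these counts have no background beside them. The cause of the other changes was not tested. The fit of the sorting effect compared the fractions within each treatment. Beyond that fit no paired analysis was possible, because the labels carry no replicate numbers by which to pair other libraries. No library could be left out with 1 per condition. Members with under about 20 reads have intervals several log2 units wide.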

Other observations

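In some clusters, members that are neighbours on a chromosome differed in their ratio of BLM over sham. On chromosome 11, between 83525778 and 83664683 (GRCm38), lie Ccl5, Ccl9, Ccl6, Ccl3 and Ccl4. The log2 ratio of BLM over sham in unsorted cells was 3.21 for Ccl9 and 3.01 for Ccl6, 1.40 for Ccl3, -0.09 for Ccl4 and -0.79 for Ccl5. On chromosome 5, between 90759360 and 90905938, lie Cxcl5, Cxcl3, Cxcl15, Cxcl1 and Cxcl2, whose ratios in the same comparison ran from -2.80 for Cxcl15 to 3.15 for Cxcl1. On chromosome 8, Ccl22, Cx3cl1 and Ccl17 lie between 94745590 and 94812036; Ccl22 and Ccl17 were higher in BLM at 2.23 and 2.42, and Cx3cl1, between them, was at -1.54. Of these chromosome 8 neighbours, Cx3cl1 alone was called by sorting. By sorting in sham, the 5 ligands on chromosome 11 all lay under 0, from -3.41 to -0.68. So did 7 neighbouring receptors on chromosome 9, between 123678439 and 124147699, from -3.93 to -0.13. In BLM both ranges reached above 0, to 0.16 and 0.70.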
